A study of Mus musculus with 4 samples.

Results

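The aminoacyl-tRNA synthetases are the enzymes that join each amino acid to its tRNA, the step at which the genetic code is read from RNA into protein. The set described here holds 36 genes of 13920 tested, of which 20 encode enzymes of the cytosol and 16 encode enzymes of the mitochondrion, marked by a 2 at the end of the symbol. They were chosen by gene name on the array and not by any measured value, with older names such as Harsl and Rarsl counted under Hars2 and Rars2. They account for 71 of 41174 probes, and each gene is represented by its brightest kept probe. Probes had to exceed background clearly on both arrays of 1 siRNA or the other, which 66 of the 71 did, and the 36 probes used did so on all 4 arrays.

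Both sets of enzymes are encoded in the nucleus, made in the cytosol and, for the mitochondrial set, imported. Most amino acids have a separate enzyme for each compartment, but Gars and Kars each give rise to both forms, and mitochondria make glutaminyl-tRNA by way of Ears2 and an amidotransferase in place of a glutaminyl-tRNA synthetase of their own. The enzymes fall into 2 structural classes, and several cytosolic ones are held with scaffold proteins in the multisynthetase complex. Many cytosolic synthetase genes are known targets of ATF4, the transcription factor of the response to amino acid shortage, through a C/EBP-ATF response element (CARE) near the start of the gene. Exportin-5, the product of Xpo5, carries microRNA precursors out of the nucleus and is also known to bind tRNA.

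The cells were wild type primary mouse embryonic fibroblasts of the C57BL/6 strain. In all groups they received 60 nM siRNA by reverse transfection for 12 hours, were starved in 0.2% serum for 48 hours, and were then returned to 20% serum for 24 hours with a second round of the same siRNA. The 2 groups differed in the siRNA, a negative control or one against Xpo5, and each holds 2 samples, numbered 1 and 2, from what the design text calls independent experiments. Whether the experiments drew on different embryos is not given in the labels, and p-values therefore measure only the spread between these samples, which may be technical. The question that the design poses is what less Exportin-5 does to gene expression as fibroblasts re-enter the cell cycle. Every level below is the log2 signal of a probe minus the 75th percentile of its array, and every difference is the mean with Xpo5 siRNA minus the mean with control siRNA on that scale (n = 2 arrays per group), with the standard error from the limma fit. Apart from the brightness of the Lars2 probe, levels are not compared between genes, because probes differ in brightness. In a bulk culture, fewer cells of a type and less RNA per cell cannot be told apart.

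Xpo5 itself read 1.31 and 1.26 in the controls and -1.95 and -1.93 under its siRNA, a fall of 9.37-fold (log2 difference -3.23 ± 0.12, limma adjusted p = 0.0106), which was 0.0627 without replicate 1 of Xpo5 siRNA, 0.168 with no filter on dim probes and 0.148 with the mean of the probes. The other kept probes of Xpo5 gave differences of -3.08 and -1.34. The latter, 33594 bases upstream, read -4.57 and -3.75 in the controls and -6.02 and -4.98 with Xpo5 siRNA. The size of the fall thus differed by probe. Of the arrays, 62.4% to 65.0% of spots were well above background and 0 were saturated, and precision is limited by how few arrays there are. The slides held replicate 1 of Xpo5 siRNA with replicate 2 of control siRNA, and replicate 1 of control siRNA with replicate 2 of Xpo5 siRNA, so a comparison within a slide also spans the experiments. Fibroblast markers were measured for 12 of 12 genes, with a median difference of 0.05. Macrophage markers were higher with Xpo5 siRNA in 14 of 14 genes, with a median of 0.65, and their summed signal, in units of the array's 75th percentile, was 44.1 to 62.4 in the controls and 74.4 to 88.6 with Xpo5 siRNA. Without replicate 2 of control siRNA that median was 0.41. In limma 0 macrophage markers passed, with 7 at an unadjusted p under 0.05, against 14.7% of all genes (8.86% higher). With the replicate block 5 rose, against 2.98% of all genes. Neural markers were measurable for 5 of 7 genes, with a median of 0.65, 3 higher and 2 lower, and 3 rose with the block, among them Nefl at 1.14. Endothelial ones were measurable for 3 of 6, with a median of 0.63, 2 higher and 1 lower. Kdr at 1.19 rose with the block, Emcn read -0.34, and Pecam1 and Cdh5 were below the filter. Epithelial markers had a median of -0.31 over 4 of 6 genes and muscle markers 0.19 over 2 of 6, and none of these passed either fit. The part of such cells in the synthetase values was not tested.

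Most synthetase transcripts stood at nearly the same level under both siRNAs. No synthetase passed an adjusted p of 0.05 in limma, against 3 of 13920 genes (0.0216%, with 0.00718% lower and 0.0144% higher), and 3 of the 36, Hars, Vars and Wars2, had an unadjusted p under 0.05, against 14.7% of all genes (5.81% lower and 8.86% higher). The median difference of the 36 was -0.07, with 23 below 0 and 13 above, beside a median of 0.01 over all genes, 48.8% of which were below 0. The difference was under 0.3 in size for 28 of the 36, and for 9804 of the 13920. The 95% interval included 0 for 33 synthetases and lay wholly within 1 log2 unit of 0, a 2-fold change, for 33. The genes whose interval reached past that were Hars, Nars and Lars2. With 2 arrays per group the smallest 2-sided p that an exact permutation test can give is 0.333, so single genes rest on the limma fit, which borrows its estimate of spread from all genes.

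**Figure D1:**
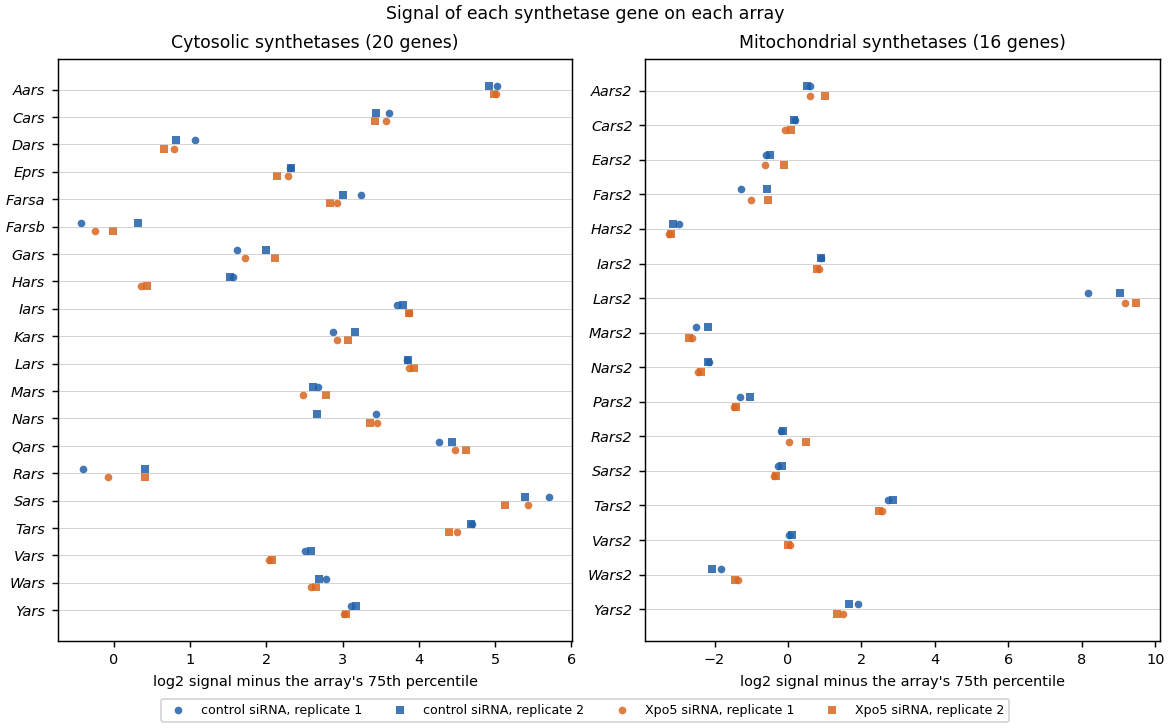
Signal of every synthetase gene on each of the 4 arrays, as log2 signal minus the array's 75th percentile (horizontal axis, with its own range in each panel), for the 20 cytosolic genes on the left and the 16 mitochondrial genes on the right. Blue points are control siRNA and orange points Xpo5 siRNA, with circles for replicate 1 and squares for replicate 2; the colours separate widely for Hars, where the controls sit at 1.56 and 1.52 and the Xpo5 arrays at 0.35 and 0.43.

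Hars, which encodes the cytosolic histidyl-tRNA synthetase, had the largest difference of the 36. Its probe read 1.56 and 1.52 under the control and 0.35 and 0.43 under Xpo5 siRNA. Both Xpo5 arrays lay far below both controls, and the gap between replicates was under 0.1 in each group. The difference was -1.15 ± 0.13, a signal 2.22-fold lower, with a 95% interval from -1.47 to -0.83. It was -1.21 in experiment 1 and -1.09 in experiment 2, and -1.17 and -1.13 within the slides. In limma the adjusted p over all genes was 0.144, and with the replicate number as a block it was 0.0437, so Hars passed in the fit that pairs the experiments. Hars read lower under all 14 alternatives, from -1.26 to -0.75, and under the 13 other than that block its adjusted p in limma was 0.0601 to 0.560. With that block 607 of 13920 genes passed (4.36%), 192 of them lower (1.38%) and 415 higher (2.98%), and Hars was the single synthetase among them.

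Hars is also the gene whose probes disagreed most. The probe used crosses an exon junction of the RefSeq mRNA. The other kept probe, 5393 bases upstream along the gene and designed to a cDNA clone, read -3.18 and -3.58 in the controls and -3.69 and -3.76 with Xpo5 siRNA. All 4 of these values are dim, and the difference of -0.34 had the same sign at a smaller size. With the mean of both probes the difference of Hars was -0.75 and its adjusted p in limma 0.178. Hars2, the mitochondrial histidyl-tRNA synthetase, is the neighbour of Hars on the opposite strand. Its levels were -2.96 and -3.13 in the controls and -3.25 and -3.19 with Xpo5 siRNA, a difference of -0.18 ± 0.14 with groups that do not overlap but an interval from -0.52 to 0.17.

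Vars, the valyl-tRNA synthetase of the cytosol, came next among the cytosolic genes. It read 2.51 and 2.58 in the controls and 2.03 and 2.07 with Xpo5 siRNA. Both Xpo5 arrays lay below both controls, and the replicates of each group differed by less than 0.1. The difference was -0.49 ± 0.13, a signal 1.41-fold lower, with an interval from -0.81 to -0.17, and it was -0.47 and -0.51 in the experiments. It did not pass in limma, with an adjusted p of 0.210, or of 0.0668 with the replicate block. The second probe of Vars, 664 bases upstream and across an exon junction, gave -0.40, from 1.70 and 2.25 in the controls to 1.53 and 1.63 with Xpo5 siRNA. Whether a probe lies in coding sequence is not given here, since no annotation of the files' build, mm9, was used.

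The cytosolic genes that follow by p were smaller differences. Tars, for threonine, read 4.69 and 4.69 in the controls and 4.50 and 4.39 with Xpo5 siRNA, at -0.25 ± 0.13 (limma adjusted p = 0.447). Farsa, the catalytic subunit gene of the phenylalanyl-tRNA synthetase, read 3.24 and 3.01 in the controls and 2.93 and 2.83 with Xpo5 siRNA, at -0.25 ± 0.15 (limma adjusted p = 0.498). In both genes the Xpo5 arrays lay below the controls, and the intervals, -0.57 to 0.08 and -0.62 to 0.13, included 0. The other subunit gene of the same enzyme, Farsb, did not share this order, with -0.43 and 0.31 in the controls and -0.25 and -0.01 with Xpo5 siRNA. Its replicates spread over more than the difference of -0.07 ± 0.28.

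The other cytosolic genes lay closer to 0 or had replicates that differed more than the groups. Sars, for serine, read -0.26, Dars, for aspartate, -0.22, Yars, for tyrosine, -0.12, and Wars, for tryptophan, -0.11. Eprs, whose product charges both glutamate and proline tRNAs, read -0.11, Cars, for cysteine, -0.03, Mars, for methionine, -0.02, and Kars, for lysine in both compartments, -0.02. The genes above 0 were Aars, for alanine, at 0.03, Lars, for leucine, at 0.05, Gars, for glycine in both compartments, at 0.12, Iars, for isoleucine, at 0.12, Rars, for arginine, at 0.17, Qars, for glutamine, at 0.20 and Nars, for asparagine, at 0.35. None of these 15 had an unadjusted p under 0.05 in limma, where each was tested with n = 2 arrays per group. The difference of Nars came from 1 array. It read 3.44 and 2.66 in the controls and 3.44 and 3.35 with Xpo5 siRNA, so that its difference was 0.01 in experiment 1 and 0.69 in experiment 2. The low array is replicate 2 of control siRNA, and without it the difference of Nars was -0.04.

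**Figure D2:**
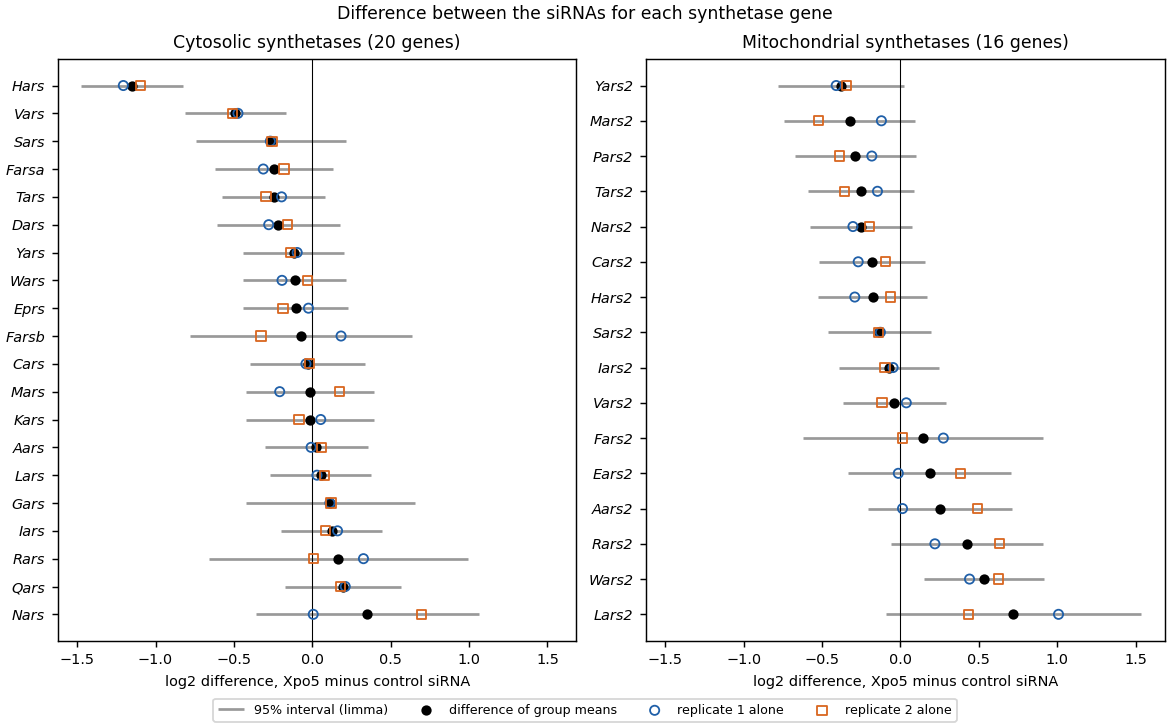
Log2 difference between the siRNAs for each synthetase gene, cytosolic on the left and mitochondrial on the right, ordered by size. Black points are the difference of the group means (n = 2 arrays per group), grey bars the 95% interval from limma, blue circles replicate 1 alone and orange squares replicate 2 alone; the bars of Hars, Vars and Wars2 do not cross 0, and the other 33 do.

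Within the cytosolic set, the members of the multisynthetase complex were even between the directions. Its 8 genes, Dars, Eprs, Iars, Kars, Lars, Mars, Qars and Rars, had a median of 0.02, with 4 below 0 and 4 above and every difference under 0.3 in size. The other 12 cytosolic genes had a median of -0.12, with 9 below 0, and these include Hars and Vars. That gap was not tested, and the complex median was -0.09 when arrays were scaled by their medians and between -0.06 and 0.10 as single arrays were left out. By structural class, the 10 cytosolic genes of class I had a median of -0.02 and the 10 of class II -0.14. Eprs was counted in class I only, though its product also charges proline, the amino acid of the class II gene Pars2. The mitochondrial genes had -0.04 for the 9 of class I and -0.18 for the 7 of class II.

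In the mitochondrial set Wars2, the tryptophanyl-tRNA synthetase of mitochondria, had the smallest p. It read -1.81 and -2.07 in the controls and -1.37 and -1.44 with Xpo5 siRNA. Both Xpo5 arrays stood above both controls. The difference was 0.53 ± 0.15, a signal 1.45-fold higher, with an interval from 0.15 to 0.92, and it was 0.44 and 0.63 in the experiments and 0.70 and 0.37 within the slides. It did not pass in limma, with an adjusted p of 0.232, or of 0.0671 with the replicate block. Its 3 kept probes did not give 1 value. The probe used lies at chr3:99023010-99023069 on mm9, a second at chr3:99022383-99022442 gave 0.69, and the most upstream one, at chr3:99020906-99020965, gave 0.07. That probe read -2.35 and -2.25 in the controls and -2.39 and -2.08 with Xpo5 siRNA, so its groups overlapped. With the mean of the 3 probes the difference of Wars2 was 0.43.

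Yars2, for tyrosine, read 1.92 and 1.67 in the controls and 1.51 and 1.32 with Xpo5 siRNA, with the Xpo5 arrays lower. The difference was -0.38 ± 0.16, with an interval from -0.78 to 0.03 and a limma adjusted p of 0.363. A second probe, designed to a cDNA clone and well above background on 3 arrays, gave -0.71, from -4.61 and -4.70 to -5.26 and -5.48. Rars2, for arginine, stood in the other direction, at -0.18 and -0.14 in the controls and 0.04 and 0.49 with Xpo5 siRNA. Its difference of 0.43 ± 0.19 had an interval from -0.06 to 0.91 and a limma adjusted p of 0.387, and it was 0.22 in experiment 1 and 0.63 in experiment 2. The probe sequences used for this pair, which point in opposite directions at like sizes, are given with their positions on mm9, plus strand.
Yars2 (chr16:16307393-16307452): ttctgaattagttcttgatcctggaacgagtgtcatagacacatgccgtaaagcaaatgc
Rars2 (chr4:34602139-34603269, across a junction): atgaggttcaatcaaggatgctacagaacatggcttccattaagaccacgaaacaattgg

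The probe of Lars2, the mitochondrial leucyl-tRNA synthetase gene, had the largest difference above 0 of the 36. Its interval was the widest of the mitochondrial set. The probe read 8.18 and 9.05 in the controls and 9.19 and 9.48 with Xpo5 siRNA. The Xpo5 arrays were higher, but the controls differed from each other by 0.87. The difference was 0.72 ± 0.32, with an interval from -0.09 to 1.53 and a limma adjusted p of 0.384. It was 1.01 and 0.43 in the experiments and 0.13 and 1.31 within the slides, and it was 0.28 without replicate 1 and 1.16 without replicate 2 of control siRNA. Lars2 has 1 probe, at chr9:123371116-123371175 on mm9. It was the brightest of the 36 probes used, and the next, that of Sars, read 5.13 to 5.71. Whether the signal of the Lars2 probe comes from the Lars2 mRNA, or partly or wholly from another RNA of like sequence, was not tested. Its difference may therefore not be that of Lars2.

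The other mitochondrial genes read between -0.32 and 0.25, and none had an unadjusted p under 0.05 in limma. Those below 0 were Mars2, for methionine, at -0.32, Pars2, for proline, at -0.29, Tars2, for threonine, at -0.25, Nars2, for asparagine, at -0.25, Cars2, for cysteine, at -0.18, Hars2 at -0.18, Sars2, for serine, at -0.13, Iars2, for isoleucine, at -0.07 and Vars2, for valine, at -0.04. Fars2, for phenylalanine, read 0.14, Ears2, whose product charges the tRNA that the amidotransferase then converts, 0.19, and Aars2, for alanine, 0.25. Aars2 read 0.59 and 0.51 in the controls and 0.60 and 1.01 with Xpo5 siRNA, so that its difference was 0.01 in experiment 1 and 0.49 in experiment 2.

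Set side by side, the compartments had nearly the same median. The cytosolic genes had a median of -0.05, with 13 below 0 and 7 above, and the mitochondrial genes a median of -0.10, with 10 below and 6 above. The cytosolic median exceeded the mitochondrial one by 0.05. That gap was 0.05 and 0.04 within the experiments, 0.05 and -0.01 within the slides, and 0.01 to 0.11 over the alternatives. The median size of a difference, whatever its sign, was 0.12 for the cytosolic genes, 0.25 for the mitochondrial genes and 0.18 over all genes. The median standard errors were 0.14, 0.15 and 0.16 in the same order, so the typical cytosolic difference was below its own error. Without Hars the cytosolic median was -0.03. Lars2, whose probe may read another RNA, is counted in the mitochondrial values. Without Lars2 the middle mitochondrial gene was Sars2, at -0.13.

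For 24 of the 36 genes the arrays of the siRNAs did not overlap, 17 lower and 7 higher with Xpo5 siRNA, against 47.6% of all genes, 22.9% lower and 24.7% higher. This was so for 11 of the 20 cytosolic genes and 13 of the 16 mitochondrial ones. The sign was the same in both experiments for 30 of the 36 genes, 16 cytosolic and 14 mitochondrial, against 71.9% of all genes. In 19 of the 36, of which 12 were cytosolic, the larger gap between replicates of 1 group exceeded the difference between the groups. This was so for 8944 of all 13920 genes.

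**Figure D3:**
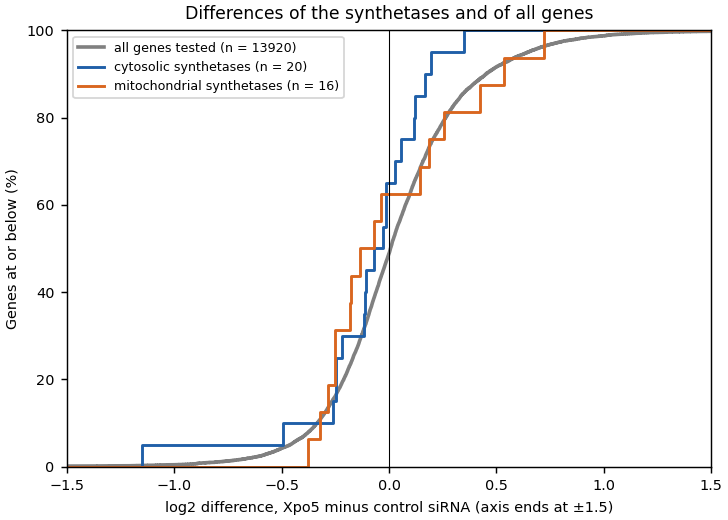
Share of genes (vertical axis, percent) with a log2 difference at or below the value on the horizontal axis, for all 13920 genes (grey), the 20 cytosolic (blue) and the 16 mitochondrial synthetases (orange). The synthetase curves lie mostly left of the grey curve near 0, with medians of -0.05 and -0.10 against 0.01, and the cytosolic curve starts with Hars at -1.15.

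Probes of the same gene often differed in sign where the difference was small. There were 20 genes with more than 1 kept probe and 30 other kept probes besides those used. Of the 30, 11 had the opposite sign to the probe used, and 2 lay over 0.5 from it, those of Hars and Dars. The second probe of Dars, for aspartate, gave 0.35 against -0.22. Opposite signs were also found in probes of Cars at 0.09, Eprs at 0.32 and 0.16, Iars at -0.02, Lars at -0.11 and -0.15, Mars at 0.11, Tars at 0.11, Wars at 0.13 and Tars2 at 0.03, all of genes whose used probe was within 0.3 of 0. Over all 66 kept probes, 37 were lower and 29 higher with Xpo5 siRNA.

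**Figure D4:**
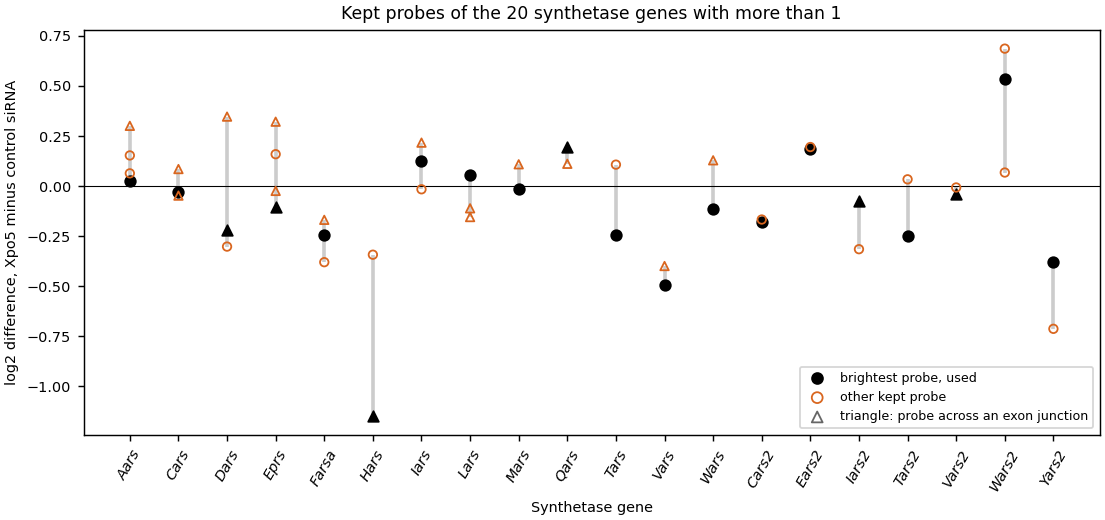
Log2 difference between the siRNAs (vertical axis) for every kept probe of the 20 synthetase genes that have more than 1 (horizontal axis). Filled black symbols are the probes used, open orange symbols the others, and triangles are probes that cross an exon junction; Hars has its probes at -1.15 and -0.34, and most other genes have theirs within 0.5 of each other.

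The regulatory sequence known for these genes was looked for in the promoters. RefSeq promoter windows of GRCm38.p6, from 250 bases before to 50 bases after the start of transcription, were given for 13 cytosolic genes and for 14 mitochondrial genes with 15 windows. The CARE was searched as TGATGNAA on both strands. It was found in 5 of the 13 cytosolic windows (38.5%), in 0 of the 15 mitochondrial windows and in 3.97% of all 32851 windows. The E-box CACGTG, the site of MYC and related factors, was found in 4 of the 13 (30.8%), 1 of the 15 (6.67%) and 7.15% of all. A match is a description of the letters and not of a bound site. The 6 CARE matches are shown with their surroundings because the choice of genes did not use this feature; they are written along the gene's strand, with the match in capitals, which reads TTNCATCA where the element lies in reverse.
Yars (chr4:129189881-129189938, plus strand): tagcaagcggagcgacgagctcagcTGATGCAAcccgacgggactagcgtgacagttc
Gars (chr6:55037946-55038003, plus strand): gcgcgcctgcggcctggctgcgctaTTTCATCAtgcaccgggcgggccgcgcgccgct
Aars (chr8:111033705-111033762, plus strand): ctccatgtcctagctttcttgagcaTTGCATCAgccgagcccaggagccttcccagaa
Aars (chr8:111033826-111033883, plus strand): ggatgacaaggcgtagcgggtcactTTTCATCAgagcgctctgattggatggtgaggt
Iars (chr13:49682112-49682169, plus strand): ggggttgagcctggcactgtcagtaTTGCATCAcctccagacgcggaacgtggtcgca
Tars (chr15:11399641-11399698, minus strand): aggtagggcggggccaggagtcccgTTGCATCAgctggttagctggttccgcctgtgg

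These matches lay near the start of transcription. They stood 3 bases after it in Yars, 30 bases before it in Gars, 112 bases before and 9 after in Aars, 7 bases after in Iars and 15 bases before in Tars. The 5 genes differed little between the siRNAs, at -0.12, 0.12, 0.03, 0.12 and -0.25 in that order, with a median of 0.03. The 8 cytosolic genes with a window but no match had a median of -0.09, with 7 below 0. Cars, Hars, Lars, Nars, Rars, Vars and Wars had no window, so they were not searched and are in neither group. The median of the 5 was -0.08 when the arrays were scaled by their medians and -0.09 with normexp background correction and spots of uneven local background left out, so it has no settled sign.

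The other genes of the ATF4 response also had a median difference near 0. Of 22 genes for the eIF2 kinases, ATF4 and its stress targets, 12 were below 0 and 10 above, with a median of -0.05. In limma 0 of them passed, against 0.0216% of all genes, or 4.36% with the replicate block. An unadjusted p under 0.05 was reached by 0, against 14.7% of all genes. Atf4 itself read 2.63 and 3.26 in the controls and 2.81 and 3.21 with Xpo5 siRNA, a difference of 0.07 ± 0.26. Its experiments stood further apart than its groups. The members with the smallest p were Nupr1, a stress-induced regulator, at -0.36, Eif2ak4, the kinase GCN2 that senses uncharged tRNA, at -0.28, the lipoprotein receptor gene Vldlr at 0.43 and Ddit3, the transcription factor CHOP, at 0.29. Asns, for asparagine synthetase and a textbook target of ATF4, read 5.91 and 5.91 in the controls and 6.01 and 5.79 with Xpo5 siRNA, a difference of -0.01.

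Enzymes of amino acid synthesis and one-carbon metabolism had a median of -0.16 over 21 genes, with 17 below 0. It stood at -0.19 in experiment 1, -0.13 in experiment 2, -0.03 on slide 1 and -0.38 on slide 2. Shmt1, the cytosolic serine hydroxymethyltransferase, read -1.37 and -1.22 in the controls and -1.98 and -2.00 with Xpo5 siRNA. Its difference of -0.70 ± 0.13 had a limma adjusted p of 0.161, and of 0.0488 with the replicate block, so it fell in the paired fit. Mthfd1, of the folate cycle, read -0.36 and Glul, for glutamine synthetase, -0.33, and neither passed. The median of the list was -0.06 without replicate 1 of control siRNA and -0.27 without replicate 2 of control siRNA, and -0.09 with normexp and those spots left out. Amino acid transporters were split 6 to 6 over 12 genes with a median of 0.02. Slc7a3, a carrier of cationic amino acids, read 0.72, Slc7a11, the cystine carrier, -0.47, Slc36a1 0.32 and Slc38a2 -0.29. In limma 0 passed with or without the block, and Slc7a3 alone had an unadjusted p under 0.05, against 14.7% of all genes.

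The partners of the synthetases gave no larger values. The scaffold and helper genes of the cytosolic enzymes had a median of -0.12 over 7 genes, with 6 below 0, which was -0.00 without replicate 2 of control siRNA. Aarsd1, an editing protein that clears wrongly charged alanine tRNA, read -0.34, and the scaffold genes Aimp1, Aimp2 and Eef1e1 -0.11, -0.22 and -0.17. Factors of mitochondrial translation, among them the amidotransferase subunits, had a median of -0.07 over 18 genes, with 13 below 0. Pus1, a pseudouridine synthase acting on tRNA, read -0.46, Gatc, of the amidotransferase, -0.25, the elongation factor gene Tsfm -0.19 and the release factor gene Mtrf1 0.17. Genes of tRNA transcription, processing and delivery had a median of -0.05 over 27 genes, with 18 below 0, with the RNase P subunit gene Rpp30 at -0.33, the elongation factor gene Eef1a1 at 0.28, Trnt1, which adds the CCA end, at -0.24 and Maf1, a repressor of RNA polymerase III, at -0.18. None of the genes of these 3 lists passed in limma with or without the replicate block, and 1 gene of each, Aarsd1, Pus1 and Rpp30, had an unadjusted p under 0.05, against 14.7% of all genes.

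**Figure D5:**
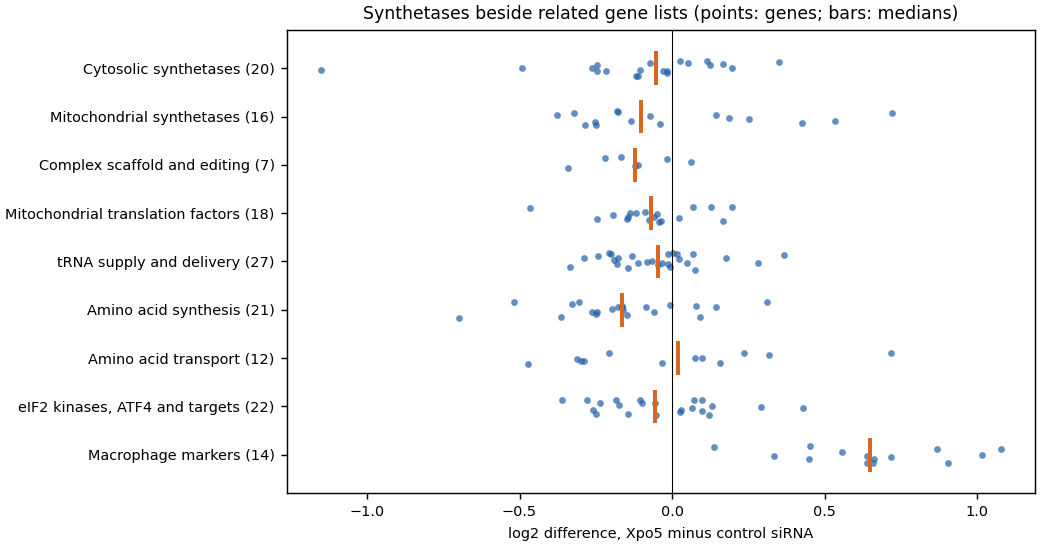
Log2 difference between the siRNAs (horizontal axis) for each gene of the synthetase sets and of 7 related lists, 1 row per list with the number of genes in brackets. Blue points are genes and orange bars the medians, which lie between -0.16 and 0.02 for all lists but the macrophage markers, at 0.65.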

How the data were processed

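Cy3-labelled cRNA made from the total RNA of 4 fibroblast cultures was read on Agilent arrays of 1 colour, as the labels' protocols state. In the deposited scanner files each spot has an intensity from which Agilent Feature Extraction 10.5.1.1 had subtracted background and spatial trend, per the file headers. The authors' deposited series table holds log2 values, which equal the log2 processed signal plus 1 constant per array to within 0.001 for 99.7% to 99.8% of probes. It was used as an alternative.

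The log2 processed signal was taken minus each array's 75th percentile. Outlier spots (77 to 134 of 43379 per array) were left out and spots of a probe averaged. Of 41174 probes, 25638 were kept. Names came from the RefSeq gene table of GRCm38.p6, used for names only. Accessions matched 26690 probes, symbols a further 5189 and synonyms 952, which left 8343 unnamed. This gave 13920 genes, each with its brightest kept probe. Positions of probes were taken from the files (mm9), and a probe was taken to cross a junction where its genomic span exceeded its length by over 5 bases.

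The siRNAs were compared with limma 3.58.1 (R 4.3.3) (lmFit, eBayes, no trend, no block, 2-sided, 4 arrays), adjusted over all genes by Benjamini-Hochberg at 0.05, after a test on simulated data. The design text speaks of independent experiments and the titles number the replicates, so the number was taken as the experiment. Same-numbered arrays deviated together from their group means (r = 0.451 over 13914 genes, which are not independent), and the fit with the number as a block is printed where it changes a call. The slide was tried as a block too.

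The members, gene lists and tests were chosen with earlier results of these data known. Xpo5 and every member are named, with array values for the 4 of smallest p in each compartment, and up to 4 genes of smallest p per related list, apart from items not reported here. Tarsl2 was chosen after its values were seen. Atf4, Asns, Farsb, Nars, Hars2 and Aars2 are given by array as genes chosen after their values were seen. Alternatives were normexp (offset 50) together with leaving out spots of uneven local background, quantile and median scaling, other filters, the mean of a gene's probes, an intensity trend, the blocks, the deposited table and each array left out.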

Additional observations from a re-analysis of the deposited data

How the results depend on the processing

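Direction and call of the 36 synthetases were recomputed under 14 alternatives, 504 values in all, of which 471 kept both, 32 changed sign and 1, Hars with the replicate block, passed. The number of synthetases called was 0 under the other 13 and 1 with the replicate block. All genes called numbered 3, and 8 with median scaling or the deposited table, 0 with no filter, 1 with the filter on all arrays or the mean of probes, 607 with the replicate block, 26 without replicate 1 and 27 without replicate 2 of control siRNA, and 0 without replicate 1 and 5 without replicate 2 of Xpo5 siRNA. With 1 array left out, the fit takes the spread of the lone array to be that of the other group. The block fit has 1 residual degree of freedom. The cause of these changes was not tested.

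Scaling by medians, as in the deposited table, put the median of all genes at -0.099. The cytosolic median was then -0.16 with either and the mitochondrial -0.21. With the mean of probes they were -0.0066 and -0.12, their gap 0.11. With normexp, where spots of uneven local background were also left out, the mitochondrial median was -0.094 and the gap 0.028, and with quantile normalization the gap was 0.066. Leaving out 1 array gave -0.098 to -0.034 for the cytosolic median, -0.13 to -0.079 for the mitochondrial and 0.012 to 0.061 for the gap, the lowest without replicate 2 of control siRNA. Cytosolic genes below 0 numbered 10 to 15, mitochondrial 9 to 12.

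Values that changed sign were, with normexp and those spots left out, Aars -0.089, Kars 0.046, Lars -0.026 and Cars2 0.0061; with quantile normalization, Kars 0.010 and Mars 0.014; with median scaling, Aars -0.079 and Lars -0.052; with the deposited table, Aars -0.080 and Lars -0.052; and with the mean of probes, Cars 0.0024, Eprs 0.088, Lars -0.071, Mars 0.046 and Wars 0.0081. Leaving out each array in turn gave ranges across 0 for 10 genes, which were -0.026 to 0.079 for Aars, -0.12 to 0.057 for Cars, -0.44 to 0.30 for Farsb, -0.077 to 0.31 for Gars, -0.16 to 0.13 for Kars, -0.17 to 0.14 for Mars, -0.039 to 0.74 for Nars, -0.24 to 0.57 for Rars, -0.063 to 0.43 for Ears2 and -0.22 to 0.51 for Fars2. Medians of the related lists were recomputed as an addition made after seeing the data.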

Other observations

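The probes of the synthetases also differed by experiment according to where they lie in the gene, a pattern noticed in these data and given as values only. Among the kept probes not used for a gene, 20 probes of 15 genes were designed to RefSeq mRNAs and lay upstream of the probe used. In control siRNA, replicate 2 exceeded replicate 1 for 17 of these 20, by a median of 0.41 on the log2 scale, and in Xpo5 siRNA for 14, by a median of 0.26. The 36 probes used had medians of 0.02 and 0.06 for the same gaps, and the 8 probes designed to cDNA clones -0.03 and -0.06. The gap exceeded 0.5 for 8 of the 20 in control siRNA and 4 in Xpo5 siRNA, and for 4 and 0 of the 36.

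The widest gap was that of the Aars probe 5603 bases upstream, which read 1.42 higher in replicate 2 of control siRNA than in replicate 1, and 0.81 higher with Xpo5 siRNA. Upstream probes of Wars, Mars, Tars and Iars followed with control gaps of 1.17, 1.05, 0.95 and 0.92. A probe of Lars, 42316 bases upstream along the genome, went the other way, at -0.71. The 20 upstream probes differed between the siRNAs by a median of 0.16 in experiment 1 and -0.05 in experiment 2, and 13 of them were higher with Xpo5 siRNA, as against 13 of the 36 probes used.

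Tarsl2, a second cytosolic threonyl-tRNA synthetase outside the named set, read -0.14 and -0.37 in the controls and -0.64 and -0.77 with Xpo5 siRNA, at -0.45 ± 0.15 (limma adjusted p = 0.285, and 0.0791 with the replicate block).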
